A study of Mus musculus with 19 samples.

Results

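Endothelial, mural, dendritic and tenocyte-like cells of the injured mouse hind limb were compared between mice given a CD47 activating peptide, named p7N3 in the study, and mice that were not, 7 days after burn and tenotomy. This injury, a dorsal burn with a cut through the Achilles tendon, makes bone and cartilage form in soft tissue, which is called heterotopic ossification (HO). Each class was picked cell by cell from single-cell RNA sequencing counts with a small gate of genes, where a UMI is 1 counted RNA molecule. An endothelial cell had at least 1 UMI each of Cdh5 and Pecam1, and a mural cell at least 1 each of Rgs5 and Notch3. A tenocyte-like cell had at least 1 UMI each of Scx and Tnmd, and all 3 classes allowed at most 1 UMI of the leukocyte gene Ptprc. A dendritic cell had at least 2 UMIs of Cd209a and 5 of H2-Ab1. The gates found 5070 of the 24840 cells of the 8 libraries: 1393 endothelial, 1084 mural, 873 dendritic and 1835 tenocyte-like cells, of which 114 fell in more than 1 class. The whole series held 39541 cells in 19 libraries.

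The day 7 group held 4 libraries of burn/tenotomy limbs with no peptide named in their labels. The p7N3 group held 4 libraries of the same injury from mice that received 10 mg/kg of the peptide by intraperitoneal injection each day, from 3 days before to 3 days after injury. The study harvested this group 1 week after injury and used saline as the control injection, while the labels name no control injection for the day 7 libraries and no harvest day for p7N3 replicate 4. The labels name C57 mice and LysmCre/Tgfb1fx/fx mice for the series together and no genotype for a library, and the study describes young adult male C57BL/6J mice. Nothing in the labels ties each library to a separate animal, so p-values measure the spread between these libraries, part of which may be technical.

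CD47 is a membrane protein present on nearly all cells. It binds SIRPα, an inhibitory receptor of myeloid cells, and it is a receptor for thrombospondin-1, a secreted matrix protein that can also release transforming growth factor β (TGF-β) from its latent form. On endothelium and smooth muscle, thrombospondin-1 binding to CD47 is known to dampen nitric oxide signaling and angiogenesis. Endothelial cells line vessels, mural cells (pericytes and smooth muscle) wrap them, and dendritic cells present antigen to T cells. Tenocytes, the fibroblasts of tendon, are marked by the transcription factor scleraxis (Scx) and by tenomodulin (Tnmd), and the cut tendon is the site where cartilage and bone of HO arise.

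The 4 day 7 libraries held 33235893 to 39870492 UMIs and the p7N3 libraries 25386054 to 35450868. The marker genes that each gate did not use were set against all other cells as a check of the names. All 10 endothelial, all 9 mural, all 11 dendritic and 7 of 8 tenocyte markers outside the gates were higher in their class in every library, the exception being Chad, at 0.332 to 42.9 CPM (counts scaled to equal library totals) in tenocyte-like cells. Fibroblast markers were also high in tenocyte-like cells, where their summed level was 44951 to 51883 CPM against 20294 to 31783 CPM in all other cells. Of 7 chondrocyte markers, 4 were higher in tenocyte-like cells than in all other cells in every library and 0 lower. Of 12 endothelial markers, 3 were higher in mural cells in the same way and 0 lower. Of the 1084 mural cells, 98 fell in more than 1 class. Several dendritic markers are MHC class II genes, linked to the gate through H2-Ab1. Of 8 monocyte markers, 4 were also higher in dendritic cells than in all other cells in every library and 2 were lower. Of 10 macrophage markers 2 were higher and 5 lower. Macrophage markers summed to 4821 to 7015 CPM in the dendritic cells of the day 7 libraries and to 3941 to 5017 CPM in those of the p7N3 libraries. Any 2 of the 8 libraries shared 4 to 22 cell barcodes, at most 0.871% of the smaller library.

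None of the 4 classes differed detectably in its share of cells. With 4 libraries in each group, a change in 1 or 2 classes alone could not pass the adjusted test. Tenocyte-like cells made up 3.58%, 14.65%, 9.24% and 8.23% of the cells in day 7 replicates 1 to 4, and 4.28%, 6.28%, 5.59% and 5.14% in the p7N3 replicates. All p7N3 libraries therefore lay below 3 of the 4 day 7 libraries and above the fourth. The mean share was 5.32% ± 0.84 (SD, n = 4) with p7N3 and 8.93% ± 4.54 (n = 4) without, a difference of −3.60 percentage points with a 95% interval, from the shifts that the test does not reject, of −10.36 to 2.68 (exact permutation test, two-sided, p = 0.171, adjusted over the 4 classes 0.686). Day 7 replicate 1 decided how the groups lay: without it the day 7 mean was 10.71%, the groups did not overlap, and p = 0.0571, the smallest value that an exact permutation test of 3 against 4 libraries can give. Without day 7 replicate 2 the difference was −1.70 points.

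The vascular classes had nearly equal shares in the 2 groups. Endothelial cells made up 7.23%, 5.03%, 5.43% and 3.89% of cells at day 7 and 5.22%, 4.31%, 7.24% and 7.20% with p7N3, so that the groups overlapped across most of their range (5.39% ± 1.38 and 5.99% ± 1.47, n = 4 each; exact permutation p = 0.543, adjusted 0.724, interval of the difference −2.92 to 3.34 points). Mural cells made up 4.26%, 4.44%, 4.85% and 3.75% at day 7 and 5.40%, 3.58%, 3.54% and 5.18% with p7N3, where replicates 1 and 4 lay above the whole day 7 group and replicates 2 and 3 below it (exact permutation p = 0.857, adjusted 0.857, interval −1.30 to 1.64 points). Dendritic cells made up 4.81%, 2.77%, 2.59% and 3.00% at day 7 and 3.66%, 3.97%, 4.33% and 3.21% with p7N3. The p7N3 libraries lay above day 7 replicates 2 to 4 and below replicate 1 (3.29% ± 1.03 and 3.79% ± 0.48, n = 4 each; exact permutation p = 0.400, adjusted 0.724, interval −1.60 to 1.72 points). Without day 7 replicate 1 the day 7 mean was 2.78% and p = 0.0571 in the same exact permutation test. With 4 libraries in each group the smallest possible p was 0.0286 before adjustment. After adjustment over the 4 classes, that value in 1 or 2 classes alone stays above the threshold. The adjusted test therefore cannot decide whether the share of 1 or 2 classes changed. A lower share can mean fewer cells of a class or more of the others, and the recovery of cells in digestion also enters it, which cannot be told apart here.

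**Figure D1:**
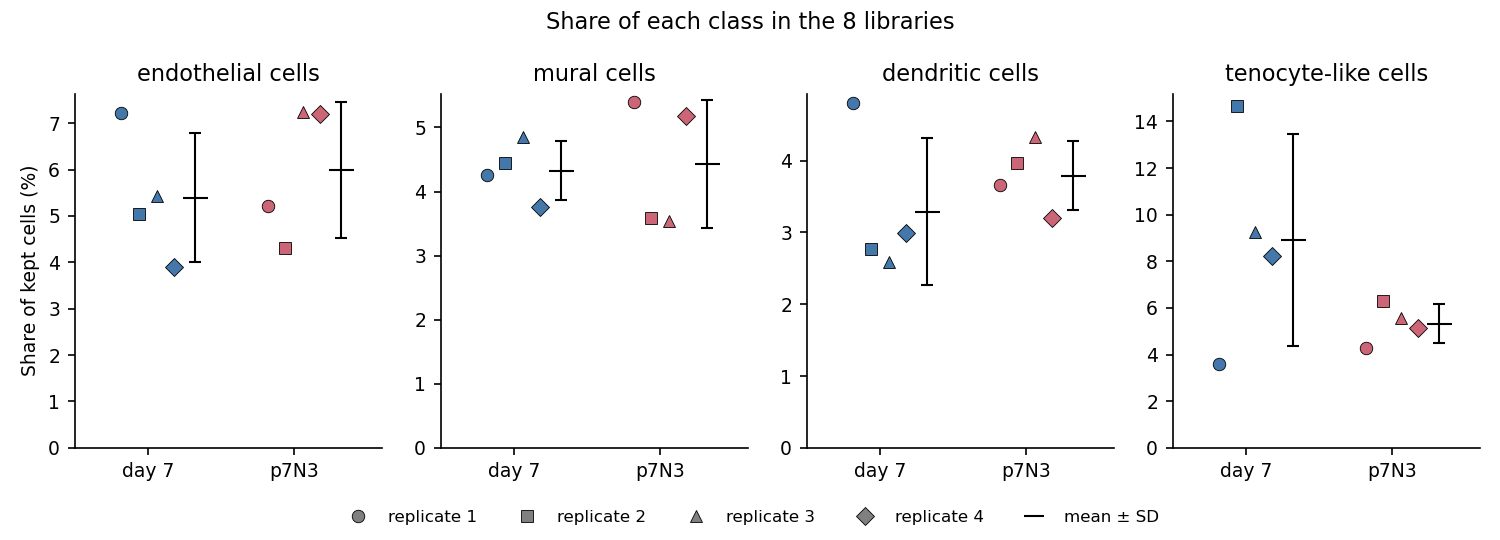
Percent of cells in each of the 4 classes by group, 1 point for each library and a bar for the mean ± SD. Day 7 replicate 1 is the lowest tenocyte-like point of that group at 3.58% and its highest dendritic point at 4.81%, and in all 4 classes the groups overlap.

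The same shares at other days of the time course are given as a description only. A gate needs UMIs of 2 genes, so it depends on depth, which differed between days. Median UMIs per cell of a library were 3414 to 4693 before injury, 10288 to 11186 at day 3 and 8873 to 12406 at day 21. A share also depends on how many other cells there are. Endothelial cells were 27.8% ± 6.16 of cells before injury, 1.69% on average at day 3 and 15.2% at day 21. Mural cells went from 5.21% to 1.84% and 12.2% over the same days, and tenocyte-like cells from 1.28% to 0.641% and 18.8%. Dendritic cells were 1.17% before injury, 3.56% at day 3 and 1.16% at day 21, so day 7 and day 3 held their highest shares.

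Gene expression was compared after summing the UMIs of each class within each library, so that a library counts once. A single gene passed the test in any class: Ctgf, encoding connective tissue growth factor (CCN2), a secreted matrix protein induced by TGF-β and by mechanical load, fell in tenocyte-like cells with p7N3. By the edgeR quasi-likelihood test with Benjamini-Hochberg adjustment at 0.05, 0 of 10331 genes passed in endothelial cells (0%), 0 of 9825 in mural cells (0%), 0 of 5802 in dendritic cells (0%) and 1 of 10726 in tenocyte-like cells (0.00932%). At an unadjusted p under 0.05 there were 799, 570, 387 and 1087 genes, or 7.73%, 5.80%, 6.67% and 10.1% of those tested. Chance alone would give a fraction of about 0.05. DESeq2 called 2, 2, 0 and 33 genes, in the same order, so the tenocyte-like count depended on the tool.

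The width of the intervals shows how closely each change was measured. Among genes with a mean of at least 20 CPM, the 95% interval of the change lay inside a doubling or halving for 97.8% of 6254 genes in endothelial cells, 97.0% of 6268 in mural cells, 87.9% of 5253 in dendritic cells and 97.8% of 5450 in tenocyte-like cells. The standard errors (SE) of the log2 fold change had medians of 0.126, 0.150, 0.21 and 0.111 in these classes. These intervals are not adjusted for the number of genes, and several genes that differed by more than 1 on the log2 scale, among them Cd14 in endothelial cells and Irf8 in dendritic cells, did not pass the adjusted test.

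Genes whose 4 p7N3 libraries all lay on one side of the 4 day 7 libraries fell on both sides about equally and were most frequent in tenocyte-like cells. Chance alone would give a fraction of about 0.0286, both sides together. They were 221 higher (2.14%) and 213 lower (2.06%) in endothelial cells, 168 (1.71%) and 191 (1.94%) in mural cells, 106 (1.83%) and 123 (2.12%) in dendritic cells, and 299 (2.79%) and 301 (2.81%) in tenocyte-like cells. Below, a gene list is described by the log2 fold change of its members (p7N3 over day 7), whose median over all genes was −0.0041, −0.0031, 0.0008 and −0.0018 in the 4 classes. These percentages are the background for each count of members that do not overlap. Many single genes named below were picked because their groups did not overlap, so in those genes the absence of overlap is no evidence of an effect.

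**Figure D2:**
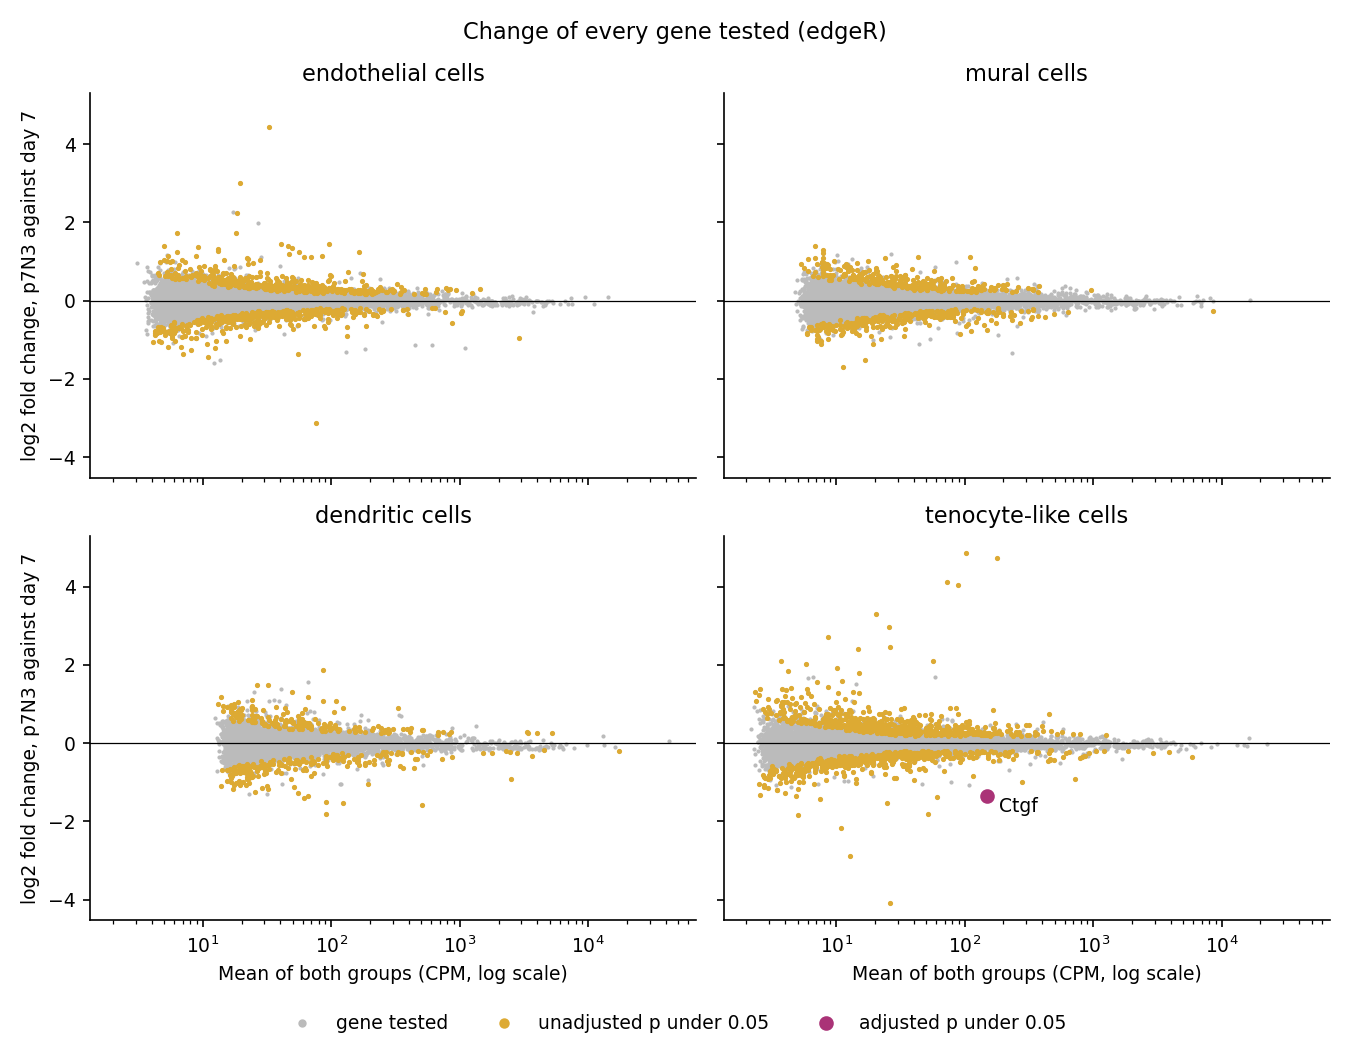
Mean level of each tested gene outside the gates (CPM, log axis) against its log2 fold change (p7N3 over day 7) in the 4 classes, with genes at an unadjusted p under 0.05 in yellow and the gene that passed the edgeR test in purple. Ctgf in tenocyte-like cells, at −1.35, is the single marked gene among 10726 in that class, and the other 3 classes have none.

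Ctgf (ENSMUSG00000019997, named Ccn2 in newer annotation) lies on the plus strand of chromosome 10 at chr10:24595442-24598683 in mm10. In tenocyte-like cells its normalized level was 257.5, 202.7, 200.8 and 190.3 CPM in day 7 replicates 1 to 4, from 589, 1862, 1170 and 967 UMIs. In the p7N3 replicates it was 55.7, 93.2, 97.7 and 86.0 CPM, from 142, 376, 300 and 221 UMIs. Every p7N3 library lay below every day 7 library, with means of 83.2 ± 18.9 and 212.8 ± 30.3 CPM (SD, n = 4 each). The log2 fold change was −1.35 ± 0.16 (SE), with a 95% interval from −1.69 to −1.002 and an edgeR adjusted p of 0.0188, and DESeq2 gave 8.34e-13. Over 20 other ways of choosing cells, libraries or settings the change stayed between −1.43 and −1.20 and passed the test in 13. Among those that left out 1 library, it missed the threshold without day 7 replicate 3 (edgeR adjusted p = 0.0913) or 4 (0.0526) and without p7N3 replicate 2 (0.0540) or 4 (0.0720).

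Ctgf was also lower with p7N3 outside the tenocyte-like cells. In all other cells together its level before normalization was 69.9, 78.3, 87.9 and 90.3 CPM at day 7 and 37.0, 29.8, 52.9 and 61.5 CPM with p7N3, again with no overlap. These other cells are a mixture. Their fibroblast markers summed to 22788 to 31783 CPM at day 7 and 20294 to 26160 CPM with p7N3. The part of cell make-up in their lower Ctgf level was not tested. The effect in tenocyte-like cells minus that in all other cells was −0.44 ± 0.23 on the log2 scale (edgeR adjusted p = 1), so the fall was not shown to be particular to them. In all kept cells together the log2 fold change was −1.03 (edgeR adjusted p = 0.261).

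In the other classes Ctgf did not pass. Mural cells held, before normalization, 277, 218, 105 and 127 CPM at day 7 and 90.1, 92.3, 149 and 111 CPM with p7N3. The groups overlapped, and the log2 fold change after normalization was −0.75. Endothelial cells held, before normalization, 106, 84.1, 89.3 and 99.4 CPM at day 7 and 47.1, 78.0, 86.1 and 91.5 CPM with p7N3. Their log2 fold change after normalization was −0.34. Dendritic cells had 32 UMIs of Ctgf in each group, too few to be tested. The effect on Ctgf did not differ detectably between the classes (edgeR adjusted p = 0.893).

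Across the time course, Ctgf in tenocyte-like cells was at 656 CPM before injury in the 2 libraries with at least 10 such cells and at 202 CPM in the 1 such library of day 3. It was at 210 ± 26.7 CPM at day 7 and 542 ± 124 CPM at day 21 (n = 4 each), against 83.3 ± 19.4 CPM with p7N3 (all before normalization). The level with p7N3 thus lay under those of all 4 days, as a description that compares libraries of differing cell number. Cyr61, which encodes the related matrix protein CCN1, stood at 411, 610, 522 and 559 CPM at day 7 and 469, 625, 542 and 465 CPM with p7N3 in tenocyte-like cells. Its log2 fold change was −0.0028 ± 0.13, and the groups overlapped throughout.

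**Figure D3:**
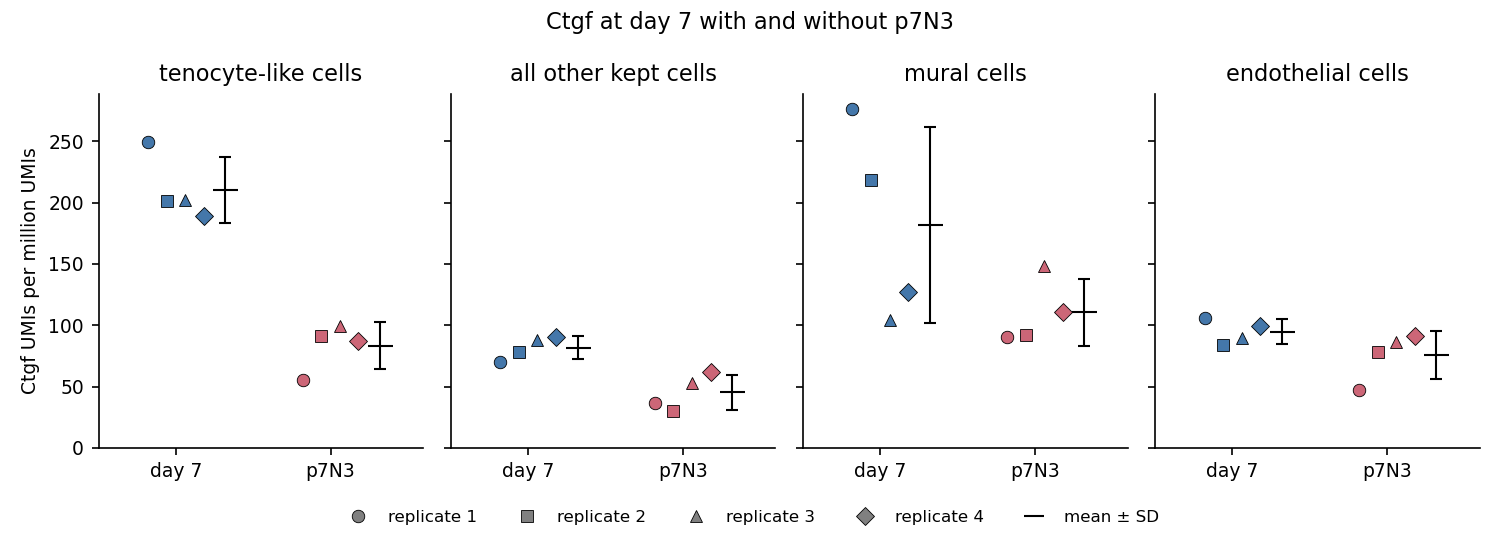
Ctgf level (CPM before normalization) by group in tenocyte-like cells, all other kept cells, mural cells and endothelial cells, 1 point for each library and a bar for the mean ± SD. In tenocyte-like cells the p7N3 points lie between 55.3 and 99.7 CPM and the day 7 points between 189 and 249 CPM, while in mural and endothelial cells the groups overlap.

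The other TGF-β genes of tenocyte-like cells did not follow Ctgf. Of 21 tested members of that list (the pathway's ligands, receptors, SMADs and targets) 1 was called, Ctgf, and the median log2 fold change was −0.04. Tgfbi, a matrix protein named for its induction by TGF-β, had a log2 fold change of 0.13 ± 0.08. Of the bone morphogenetic protein (BMP) and Id genes none of 14 passed. Id3, an inhibitor of basic helix-loop-helix factors and a BMP target, was at 145, 152, 122 and 162 CPM at day 7 and 222, 172, 197 and 169 CPM with p7N3, without overlap (0.39 ± 0.11, edgeR adjusted p = 0.288). That held for 1 of the 14.

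Tendon identity genes lay close to the day 7 level, and most fibrillar collagen genes lay below 0 without passing the test. The 14 tested tendon genes had a median log2 fold change of 0.11, with none called. Thbs4 (thrombospondin-4, a tendon matrix protein) was at 0.10, Fmod (fibromodulin, which binds collagen fibrils) at −0.14 and Comp (cartilage oligomeric matrix protein) at 0.12. Of 11 fibrillar collagen genes 10 lay below 0, 4 of them at an unadjusted p under 0.05 and none after adjustment, with a median of −0.16. Col2a1, Col11a1 and Col11a2 are members both of this list and of the cartilage list below. Col1a1, the main chain of type I collagen, had a log2 fold change of −0.03 ± 0.08. Among 16 collagen processing genes, the lysyl hydroxylase genes Plod1 (−0.26) and Plod3 (0.25) each had groups that did not overlap, on opposite sides, and neither passed.

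Most cartilage genes of tenocyte-like cells were highest in a single day 7 library. Of 10 tested members 9 lay below 0 with a median of −0.91, 5 of them at an unadjusted p under 0.05, and none passed. In 1 of the 10 all p7N3 libraries lay below all day 7 libraries, against 2.81% of all genes tested. Day 7 replicate 2 was the highest of the 8 libraries in 7 of the 10. Col2a1, the collagen of cartilage, was at 2.19, 57.8, 6.52 and 3.15 CPM in the day 7 replicates and 1.96, 4.46, 6.84 and 3.89 CPM in the p7N3 replicates. Day 7 replicate 2 stood alone, and without it the log2 fold change went from −2.18 to 0.03. Col9a3, another cartilage collagen gene, was at 74.5 CPM in that same library and at 1.49 to 7.49 CPM in the other 7. Col11a1, whose collagen nucleates fibrils, was at 423, 753, 476 and 465 CPM at day 7 and 453, 348, 395 and 369 CPM with p7N3 (−0.44). Sox9, the master regulator of chondrocytes, and Acan, the cartilage proteoglycan aggrecan, had log2 fold changes of 0.06 ± 0.13 and −0.11 ± 0.17.

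Inflammatory genes of tenocyte-like cells lay on the higher side with p7N3, with none passing the test. All 22 tested NF-κB and cytokine genes had log2 fold changes above 0, with a median of 0.27, and 6 had an unadjusted p under 0.05. Cxcl2, a chemokine that recruits neutrophils, was at 103, 83.8, 137 and 154 CPM at day 7 and 192, 296, 194 and 179 CPM with p7N3. Its groups did not overlap (0.85 ± 0.20, edgeR adjusted p = 0.206, DESeq2 0.00915), which held for 2 of the 22. Cxcl1, a chemokine of the same receptor, was at 341 ± 104 and 569 ± 207 CPM and Il1b, encoding interleukin-1β, at 37.8 ± 10.9 and 59.8 ± 23.1 CPM (day 7 and p7N3, n = 4 each). Il1b is mainly a myeloid gene, and neutrophil marker genes in tenocyte-like cells summed to 182, 65.8, 115 and 139 CPM at day 7 and 312, 235, 257 and 109 CPM with p7N3. Their part in the inflammatory values was not tested.

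Of the genes that DESeq2 called and edgeR did not in tenocyte-like cells, 2 more were examined, chosen after their values were seen. Spp1, encoding osteopontin, a secreted phosphoprotein of bone and wounds, was at 1082, 857, 915 and 945 CPM at day 7 and 542, 628, 285 and 565 CPM with p7N3. The groups did not overlap (−0.91 ± 0.19, edgeR adjusted p = 0.162, DESeq2 0.00148), which held for 1 of 5 tested bone genes. Of these 5, 2 lay above 0 and 3 below, with a median of −0.06. The study also lists Spp1 among top genes of macrophage clusters. Macrophage markers in tenocyte-like cells lay below 0 in 9 of 10, and their part in the Spp1 value was not tested. Slpi, a secreted inhibitor of neutrophil elastase, was at 426, 389, 434 and 238 CPM at day 7 and 176, 149, 253 and 169 CPM with p7N3, where p7N3 replicate 3 overlapped day 7 replicate 4 (−0.99 ± 0.19, edgeR adjusted p = 0.144, DESeq2 0.00076). Hsp90aa1, encoding a stress chaperone of the heat shock list, had a log2 fold change of 0.24 and did not pass.

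Skeletal muscle genes separated 1 library. Acta1, the actin of skeletal muscle, was at 18.8, 5.77, 27.6 and 1.97 CPM in the tenocyte-like cells of day 7 and at 3.53, 2.73, 43.0 and 1324 CPM in those of p7N3, with only replicate 4 high. Myl1, a fast myosin light chain, was at 758 CPM in the same library. All 6 muscle markers together summed to 15.6, 14.6, 161 and 2979 CPM in the p7N3 replicates. The Acta1 log2 fold change of 4.72 ± 1.55 was −0.04 with replicates 1 to 3 of both groups alone.

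No endothelial gene passed. Among genes of vessel identity, Cldn5, the tight junction protein claudin-5, was at 914, 1196, 1239 and 801 CPM at day 7 and 749, 661, 596 and 787 CPM with p7N3. All p7N3 libraries lay below all day 7 libraries (−0.57 ± 0.14, edgeR adjusted p = 0.476), which held for 1 of 8 tested junction genes. Aqp1, the water channel of capillary endothelium, was at 1135 ± 183 CPM at day 7 and 920 ± 77.0 CPM with p7N3 (n = 4 each). The 10 capillary genes had a median log2 fold change of −0.18, the 10 venular and activation genes −0.02, the 10 arterial genes 0.08 and the 13 sprouting genes −0.01, with none called in any of these lists.

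Lymphatic endothelial genes were together on the lower side. All 6 tested members had log2 fold changes between −0.73 and −0.47, with a median of −0.65, 5 of them at an unadjusted p under 0.05, and none was called. Prox1, the transcription factor that sets lymphatic identity, was at 36.8, 84.0, 74.6 and 53.6 CPM at day 7 and 45.7, 37.0, 34.9 and 32.8 CPM with p7N3, so that day 7 replicate 1 lay among the p7N3 libraries. The hyaluronan receptor Lyve1 stood at −0.68, the matrix proteins Mmrn1 at −0.69 and Reln at −0.62, podoplanin (Pdpn) at −0.50 and the VEGF-C receptor gene Flt4 at −0.47. Fewer lymphatic cells within the class and less of these RNAs per cell cannot be told apart in such sums.

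The list of venular and activation genes had 5 members above 0 and 5 below. Of its members, Selp, encoding P-selectin, on which leukocytes roll, was at 239, 93.1, 105 and 95.7 CPM at day 7 and 281, 201, 196 and 193 CPM with p7N3. Day 7 replicate 1 was the only library of its group within the p7N3 range (0.69 ± 0.26, edgeR adjusted p = 0.58), and without it the change was 1.15 with an edgeR adjusted p of 0.0306. Sele, encoding E-selectin, had a log2 fold change of 0.57 ± 0.21. Of 23 NF-κB and cytokine genes 21 lay above 0 with a median of 0.20. Ptgs2, the inducible cyclooxygenase, was at 7.93, 7.54, 10.3 and 7.65 CPM at day 7 and 64.5, 10.8, 12.1 and 24.7 CPM with p7N3, and Tnfaip2, induced by tumor necrosis factor, was at 43.8, 37.3, 36.0 and 45.3 against 64.9, 45.6, 60.7 and 70.3 CPM. Neither pair of groups overlapped, which held for 2 of the 23, and neither gene passed (edgeR adjusted p = 0.544 and 0.476).

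Part of this signal was highest in 1 library. Cxcl2 was at 153, 50.9, 84.5 and 101 CPM in the endothelial cells of day 7 and 511, 128, 113 and 171 CPM in those of p7N3. Cxcl3, a chemokine made by activated neutrophils and macrophages, was at 238 CPM in p7N3 replicate 1 and at 0.43 to 5.60 CPM in the other 7 libraries. Neutrophil marker genes in endothelial cells summed to 169, 61.2, 87.1 and 92.5 CPM at day 7 and 527, 164, 222 and 175 CPM with p7N3, and their part in these values was not tested. Complement genes, of which 11 were tested, had a median of 0.59 with none called. In the same endothelial sums all 8 tested fibroblast markers lay above 0, while macrophage markers had 5 above and 4 below. The part of such RNA in the complement values was not tested.

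Antigen presentation and growth factor signaling genes of endothelial cells had no called members either. Cd74, the invariant chain of MHC class II, was at 201, 247, 173 and 287 CPM at day 7 and 123, 165, 140 and 145 CPM with p7N3, without overlap (−0.66 ± 0.14, edgeR adjusted p = 0.476). All 5 tested dendritic markers, Cd74 among them, lay below 0 in endothelial cells, and 1 of the 5 had groups without overlap. The immunoproteasome genes Psmb8 (−0.25 ± 0.09) and Psmb9 (−0.36 ± 0.11) belonged to an MHC class I list with a median of −0.11 over 11 genes. In 2 of the 11 the groups did not overlap, on the lower side. Of 30 interferon-stimulated genes 25 lay below 0 with a median of −0.19. Tgfbr2, the type II TGF-β receptor, was at 192, 172, 163 and 154 CPM at day 7 and 143, 121, 137 and 140 CPM with p7N3 (−0.34 ± 0.09, edgeR adjusted p = 0.530). Of 20 tested TGF-β genes, 1 had groups without overlap. Bmp4, a ligand of bone and vessel formation, was at 20.6, 22.99, 23.2 and 15.9 CPM at day 7 and 28.8, 37.0, 31.9 and 41.7 CPM with p7N3. Its groups did not overlap (0.74 ± 0.16, edgeR adjusted p = 0.476), which held for 1 of 13 tested BMP and Id genes.

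Hypoxia and glycolysis genes of endothelial cells lay mostly above 0, 19 of 24 with none called. In 2 of the 24 the groups did not overlap. Ldha, encoding lactate dehydrogenase A, was at 560, 645, 594 and 585 CPM at day 7 and 714, 740, 766 and 694 CPM with p7N3 (0.29 ± 0.07), and Pkm, pyruvate kinase, had a log2 fold change of 0.27 ± 0.10. DESeq2 called 2 endothelial genes, named here after their values were seen. Hspa9, the mitochondrial chaperone mortalin, was at 105, 104, 114 and 97.6 CPM at day 7 and 146, 149, 158 and 140 CPM with p7N3 (0.49 ± 0.09, edgeR adjusted p = 0.476, DESeq2 0.0477). Cd14, a coreceptor for endotoxin best known on monocytes, was at 34.3, 31.3, 31.3 and 14.7 CPM at day 7 and 100, 42.9, 69.8 and 50.6 CPM with p7N3 (1.19 ± 0.26, edgeR adjusted p = 0.476, DESeq2 0.0446). In both genes every p7N3 library lay above every day 7 library.

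No mural gene passed. Contractile and pericyte genes lay near the day 7 level: Acta2, smooth muscle actin, was at 6161 ± 812 CPM at day 7 and 6000.3 ± 503 CPM with p7N3 (n = 4 each; −0.04). Myh11, smooth muscle myosin, and Tagln, the actin-binding protein transgelin, had log2 fold changes of −0.11 and −0.07. The 15 contractile genes had a median of −0.09 and the 12 pericyte genes −0.08. Higd1b, a pericyte marker, was at 481 ± 135 CPM at day 7 and 362 ± 46.9 CPM with p7N3 (−0.41 ± 0.17). All 8 tested fibrillar collagen genes lay below 0 with a median of −0.15, and none was called. Itgb1, the β1 integrin chain, had a log2 fold change of 0.12 ± 0.08, with every p7N3 library above every day 7 library. That held for 1 of 10 tested CD47 and thrombospondin genes.

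Cell cycle genes of mural cells lay above 0 in 26 of 30, with a median of 0.24, and none was called, though 6 had an unadjusted p under 0.05. Cdc20, an activator of the anaphase-promoting complex, was at 88.1, 104, 94.6 and 97.2 CPM at day 7 and 132, 111, 136 and 152 CPM with p7N3 (0.47 ± 0.11, edgeR adjusted p = 0.850). Ccnb1, cyclin B1, was at 60.9, 60.5, 57.2 and 60.5 CPM at day 7 and 68.2, 66.8, 63.6 and 111 CPM with p7N3 (0.38 ± 0.17). Both genes had groups that did not overlap, which held for 2 of the 30.

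Interferon and antigen presentation genes of mural cells had no called members. Tap1, the peptide transporter of MHC class I, was at 23.2, 27.4, 28.6 and 27.5 CPM at day 7 and 11.4, 19.9, 20.2 and 17.7 CPM with p7N3. Its groups did not overlap (−0.66 ± 0.20). Irf7, a regulator of interferon genes, was at 27.3, 27.4, 61.9 and 25.7 CPM at day 7 and 23.8, 21.8, 24.1 and 18.8 CPM with p7N3 (−0.67 ± 0.27), also without overlap. Such a split held for 1 of 11 tested MHC class I genes and 1 of 28 interferon-stimulated genes, and 24 of the 28 lay below 0. DESeq2 called 2 mural genes, named here after their values were seen. Mest, an imprinted gene of growing mesenchyme, was at 128, 169, 145 and 124 CPM at day 7 and 88.8, 64.2, 81.9 and 94.7 CPM with p7N3 (−0.78 ± 0.14, edgeR adjusted p = 0.672, DESeq2 0.0221). Hmox1, heme oxygenase 1, which breaks down heme, was at 68.4, 108, 44.9 and 55.6 CPM at day 7 and 179, 193, 104 and 121 CPM with p7N3, where p7N3 replicate 3 lay just below day 7 replicate 2 (1.11 ± 0.24, edgeR adjusted p = 0.850, DESeq2 0.0321).

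No dendritic gene passed. The antigen presentation genes, a list linked to the gate through H2-Ab1, lay at the day 7 level: the 10 MHC class II genes had a median log2 fold change of 0.01, with H2-Aa at −0.04 ± 0.10 and Cd74 at 0.05 ± 0.08. Of 13 maturation and costimulation genes the median was 0.06. Cd40, through which T cells license dendritic cells, was at 37.8, 62.1, 37.6 and 40.5 CPM at day 7 and 92.5, 75.7, 74.8 and 80.0 CPM with p7N3. All p7N3 libraries lay above all day 7 libraries (0.86 ± 0.19, edgeR adjusted p = 0.609), which held for 1 of the 13. Ccr7, the receptor that guides dendritic cells to lymph nodes, had a log2 fold change of −0.55 ± 0.34.

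Subset genes of dendritic cells gave 1 wide difference. Irf8, the transcription factor of type 1 conventional dendritic cells, also present in monocytes, was at 196, 394, 255 and 207 CPM at day 7 and 177, 155, 101 and 65.5 CPM with p7N3. The groups did not overlap (−1.05 ± 0.28, edgeR adjusted p = 0.609), which held for 1 of the 4 tested genes of that subset. The other genes of that subset did not lie lower: 3 of the 4 tested members were above 0, with a list median of 0.11, and the 8 type 2 genes had a median of −0.04.

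Macrophage markers in dendritic cells were mostly lower with p7N3, 9 of 10 below 0 with a median of −0.32 and none called. Ms4a7, a membrane protein of macrophages, was at 102, 80.7, 255 and 103 CPM at day 7 and 60.7, 38.4, 31.2 and 58.2 CPM with p7N3 (−1.495 ± 0.35, edgeR adjusted p = 0.609). Adgre1, the F4/80 antigen, was at 58.6, 59.0, 75.1 and 65.5 CPM at day 7 and 35.9, 39.6, 46.8 and 38.2 CPM with p7N3 (−0.67 ± 0.16). Both had groups without overlap, which held for 2 of the 10. C1qa, a complement chain of macrophages, had a log2 fold change of −0.59, Lyz2, lysozyme, −0.34 ± 0.11, and Fcgr1, the high-affinity IgG receptor, 0.47. With a stricter limit on C1qa UMIs per cell, the Ms4a7 change was −0.19 and the Adgre1 change −0.20, so both depended on which cells the gate kept.

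Metabolic and interferon genes of dendritic cells had no called members. Slc2a1, the glucose transporter GLUT1, was at 19.1 ± 5.29 CPM at day 7 and 32.1 ± 6.41 CPM with p7N3 (0.69 ± 0.25), and the glycolytic enzyme genes Pfkp and Pgam1 stood at 0.35 and −0.16. Of 19 tested hypoxia and glycolysis genes, 2 had groups without overlap on the higher side and 1 on the lower side. Of 20 interferon-stimulated genes 16 lay above 0 with a median of 0.28, on the opposite side from the endothelial and mural lists, a difference between classes that was not tested as a list. Of 78 ribosomal protein genes 71 lay below 0 with a median of −0.11. Most lay below 0 in the other classes too: 65 of 78 in endothelial, 58 of 79 in mural and 65 of 79 in tenocyte-like cells.

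**Figure D4:**
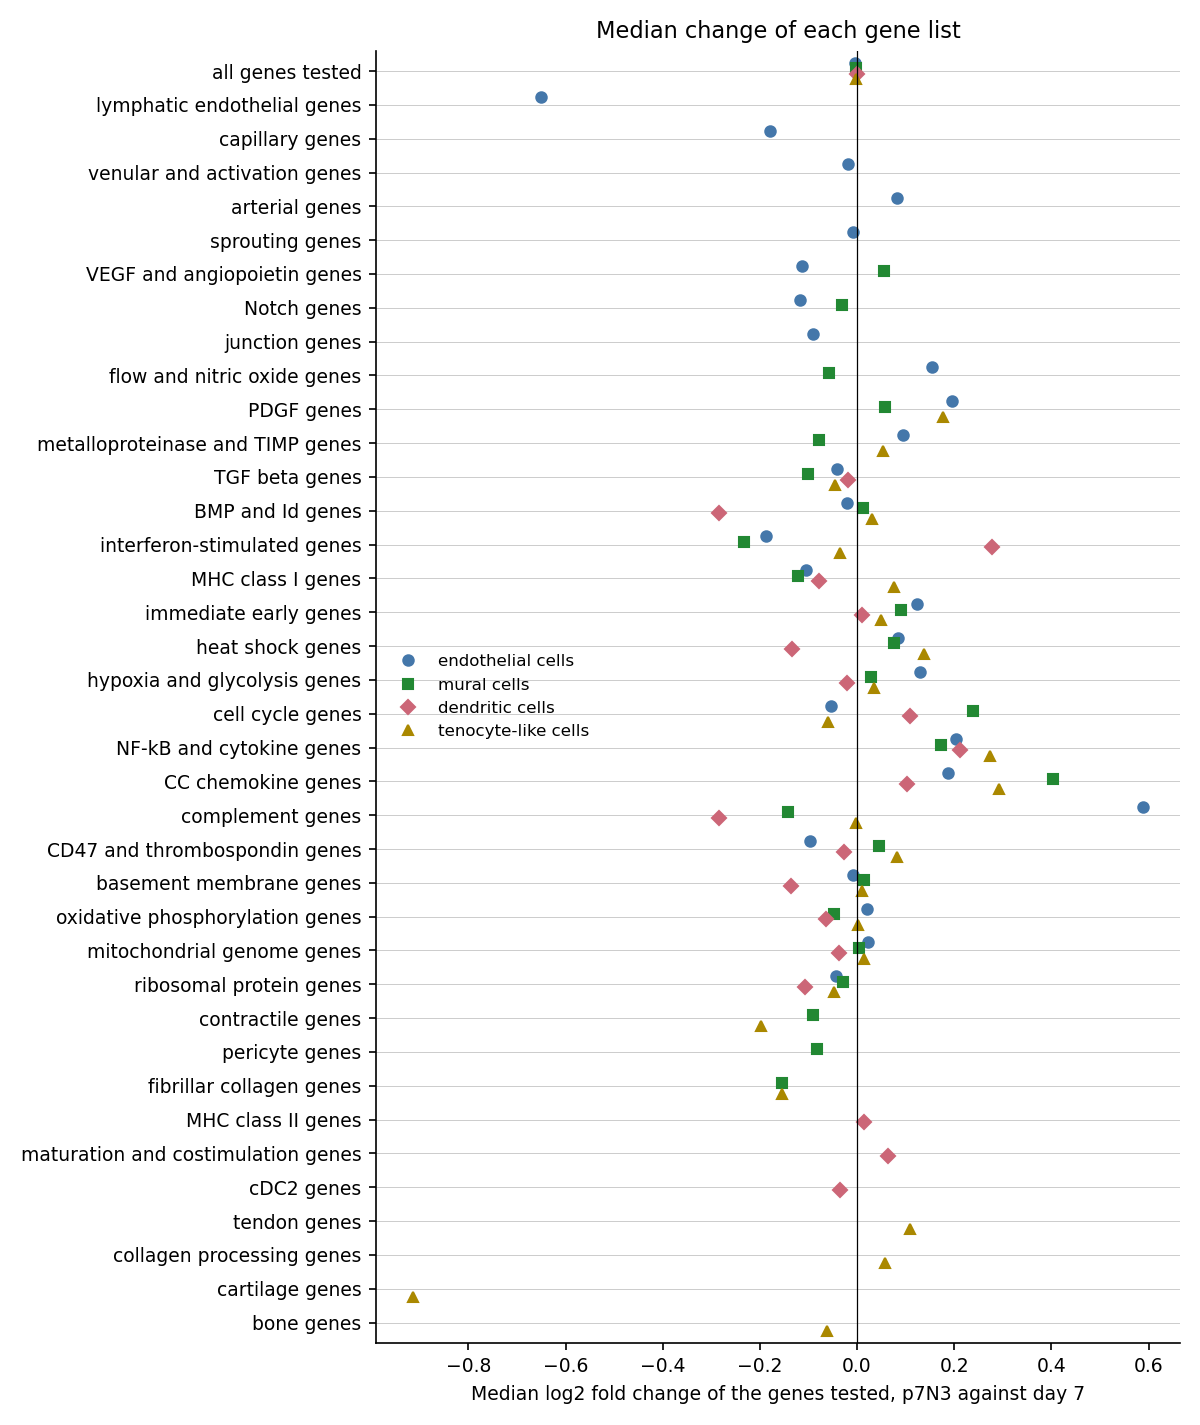
Median log2 fold change (p7N3 over day 7) of the gene lists with at least 5 tested genes, cell type marker lists left out, 1 symbol for each class, with the median of all genes tested near 0. The NF-κB and cytokine list lies above 0 in every class (0.20, 0.17, 0.21 and 0.27), and the plotted point farthest from 0 is the cartilage list of tenocyte-like cells, at −0.91. The classes come from the same libraries, so their medians are not independent of one another.

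The genes of the CD47 pathway itself did not pass in any class. Cd47 was at 434, 420, 428 and 381 CPM in the endothelial cells of day 7 and 369, 389, 402 and 405 CPM in those of p7N3. Its log2 fold change was −0.09 ± 0.07 in endothelial, 0.08 ± 0.09 in mural, −0.03 ± 0.09 in dendritic and 0.07 ± 0.08 in tenocyte-like cells. Sirpa, encoding the receptor SIRPα, was at 44.6, 34.6, 37.9 and 39.8 CPM in the tenocyte-like cells of day 7 and 50.6, 43.9, 42.7 and 56.5 CPM in those of p7N3 (0.31 ± 0.11, edgeR adjusted p = 0.371), and stood at −0.28 ± 0.17, 0.01 ± 0.17 and −0.03 ± 0.12 in endothelial, mural and dendritic cells. Thbs1, encoding thrombospondin-1, stood at 0.40 ± 0.16, −0.22 ± 0.16, −0.19 ± 0.42 and −0.43 ± 0.19 in endothelial, mural, dendritic and tenocyte-like cells. Tgfb1 stood at −0.12 ± 0.10, 0.18 ± 0.10, −0.02 ± 0.13 and −0.06 ± 0.13 in the same order. These transcripts do not measure how far the peptide engaged the CD47 protein.

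**Figure D5:**
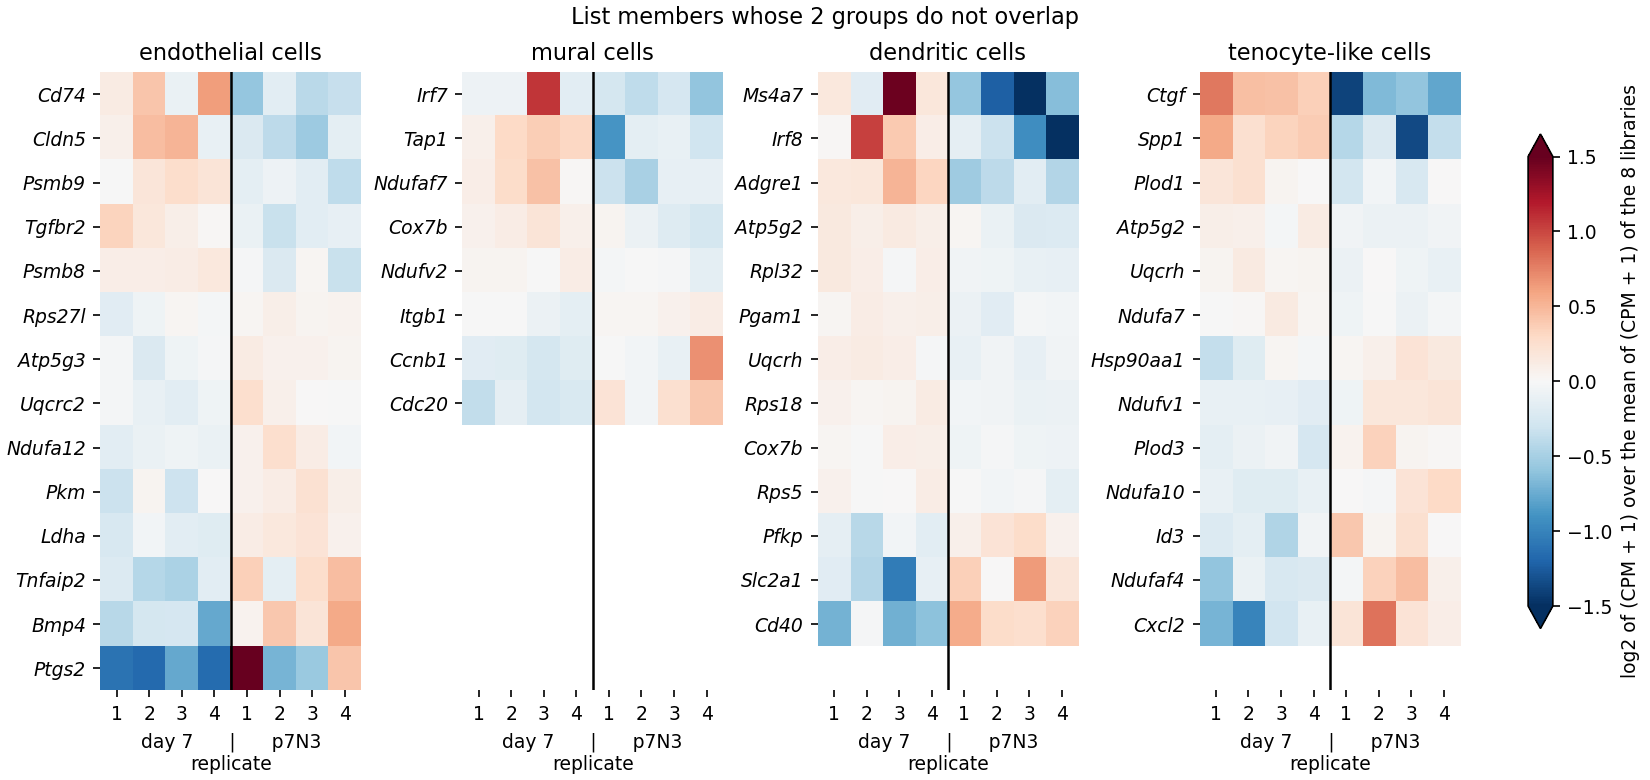
Heat map of the gene list members whose groups did not overlap, by class, at a mean of at least 20 CPM in the higher group. Gate genes and sex-linked genes were left out. It has 1 column for each library, rows in order of log2 fold change and color for the log2 level (CPM + 1) over the mean of the 8 libraries. Membership was set by the absence of overlap, so the split between the groups is no finding, and the map shows single libraries that stand out, such as day 7 replicate 3 in Ms4a7 and p7N3 replicate 1 in Ptgs2.

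Whether p7N3 acted differently on these classes than on the rest of the tissue was tested as an interaction, with 2 sums for each library. No gene passed in endothelial, mural, dendritic or tenocyte-like cells against all other cells (0% of the genes tested in each class). At an unadjusted p under 0.05 by edgeR there were 563 of 10331, 381 of 9825, 325 of 5802 and 481 of 10726 genes. DESeq2 called 1, 3, 0 and 3 genes. The difference of the effect between the 4 classes likewise had 0 of 11858 genes past the edgeR threshold (0%) and 593 at an unadjusted p under 0.05. The genes that DESeq2 called in tenocyte-like cells against the rest were Slpi (−1.24), Spp1 (−1.04) and Hp (−0.95), the last encoding haptoglobin, values that give the log2 effect in the class minus that in all other cells.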

How the data were processed

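Cells of the tenotomy site were sequenced with the 10x Genomics 3′ assay. The authors deposited, for each library, UMI counts per gene and barcode, made with Cell Ranger on mm10. The labels name GRCh38 as well and give no tool versions. Each deposited table held 27998 genes. From these counts, barcodes were dropped below 500 detected genes or above 25% of UMIs from mitochondrial genes, the study's limits (this left 24840 of 25512 barcodes). Classes were gated as described in the report. Doublets were not removed in the main analysis; leaving out the top 3.9% of Scrublet scores was an alternative.

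UMIs were summed per library and class and tested with the edgeR quasi-likelihood test (edgeR 4.0.16, R 4.3.3, TMM, filterByExpr), with Benjamini-Hochberg adjustment over all genes tested and a threshold of 0.05. This replaced the study's test of single cells, which treats cells as replicates. DESeq2 1.42.0 was an alternative. CPM values are the summed counts scaled to equal library totals, normalized by TMM unless stated. The marker levels set against all other cells and the summed marker levels are before normalization. Shares were compared with exact permutation tests (scipy 1.17.1). The scripts were tested on simulated counts. Intervals of shares cover only the variation between these libraries.

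Named genes were those past the threshold without overlap, at a mean of at least 20 CPM and outside the gate, the 10 largest rises and 10 largest falls in each class, list members that passed, genes that passed in at least 3 classes, and Cd47, Sirpa, Thbs1 and Tgfb1. List members that missed the threshold were given as values. Many of these were picked because their groups did not overlap at a mean of at least 20 CPM. The absence of overlap in such a gene is no finding. Cell classes, gates and gene lists were chosen with earlier results of these data known. Gene positions are from GENCODE vM21 on GRCm38, the assembly of mm10. Alternatives changed the low-count filter, the scaling, the cell filters, the gates, the denominators and the libraries. The day 0, day 3 and day 21 libraries entered only descriptions.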

Additional observations from a re-analysis of the deposited data

Results flagged for a closer look

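A library of a group of 4 was singled out when its gap to the nearest other exceeded Dixon's limit of the group's range at the 95% level. Of 186 groups of values tested, 21 had such a library, where chance gives about 5%, and the groups of 1 gene or library are not independent. The genes tested were those named in the text, several of them chosen with their values known. The 5% is therefore no yardstick for the 21. Below, highest and lowest refer to the 4 libraries of the same group. No explanation was tested.

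In endothelial cells, Selp was highest in replicate 1 of both groups (239 CPM at day 7 and 281 CPM with p7N3). Within the p7N3 group, replicate 1 was also highest in Reln (39.8 CPM), Cxcl2 (511 CPM) and Cxcl3 (238 CPM). At day 7, Ptgs2 was highest in replicate 3 (10.3 CPM), Psmb8 was highest in replicate 4 (171 CPM) and Cd14 was lowest there (14.7 CPM). In mural cells, Ccnb1 was lowest in day 7 replicate 3 (57.2 CPM) and highest in p7N3 replicate 4 (111 CPM), and Irf7 was highest in day 7 replicate 3 (61.9 CPM).

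In dendritic cells, replicate 2 was the highest of the day 7 group in Cd40 (62.1 CPM), below all p7N3 libraries, and replicate 3 in Ms4a7 (255 CPM). Within the p7N3 group, replicate 3 was highest in Fcgr1 (95.1 CPM). In tenocyte-like cells, p7N3 replicate 2 was highest in Cxcl2 (296 CPM) and in Plod3 (138 CPM). The cartilage genes Col2a1 (57.8 CPM), Col9a3 (74.5 CPM) and Col11a1 (753 CPM) were all highest in day 7 replicate 2, and the muscle genes Acta1 (1324 CPM) and Myl1 (758 CPM) in p7N3 replicate 4.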

How the results depend on the processing

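Of the recomputed differences in share, 65 kept their direction and none passed the test. Many could not pass whatever the data. The smallest possible permutation p was 0.0571 with 1 library left out and 0.1 with replicates 1 to 3 only. It was 0.125 with same-numbered libraries taken as 4 pairs. The other settings kept the limit given for the main test, so the absence of a pass does not show robustness. The direction turned in 7, where the main differences were 0.598 (endothelial), 0.101 (mural) and 0.502 (dendritic) points. Endothelial cells gave −0.306 points with replicates 1 to 3 only, and dendritic cells −0.0559 with another denominator. Mural cells gave −0.0051 with a stricter leukocyte limit and −0.342 with replicates 1 to 3 only. They gave −0.224 without p7N3 replicate 1, −0.152 without p7N3 replicate 4 and −0.0903 without day 7 replicate 4. Leaving out any other single library gave up to 0.396. Of counts of called genes, DESeq2 gave 2 endothelial, 2 mural and 33 tenocyte-like genes, and 1, 3 and 3 for the class against the rest. Without a low-count filter 2 endothelial, 45 dendritic and 8 tenocyte-like genes were called, and with at least 10 UMIs in every library 2 tenocyte-like genes. Gates with doubled minima gave 1 mural and 0 tenocyte-like genes, and replicates 1 to 3 alone 0 tenocyte-like genes. Leaving out 1 library gave 0 to 3 endothelial, 0 to 1 mural and 0 to 1 tenocyte-like genes, 0 to 1 mural and 0 to 2 tenocyte-like genes against the rest, and 0 to 4 between classes. Those 3 endothelial genes came without day 7 replicate 1, the 2 tenocyte-like genes without day 7 replicate 4 and the 4 genes between classes without p7N3 replicate 3.

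Ctgf kept its direction in every alternative, with an edgeR adjusted p of up to 0.1475, with replicates 1 to 3 only. Directions turned for C1qa in dendritic cells under the stricter limit, which selects on C1qa itself (0.54), Col2a1 without day 7 replicate 2 (range over single libraries left out −2.51 to 0.030), Acta1 with replicates 1 to 3 only (−0.036) and Thbs1 in mural cells without the top Scrublet scores (0.073). Values within 1 SE of 0 were given no direction. Apart from fewer libraries or genes tested, the cause was not tested.

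Whether replicate numbers shared between groups pair the libraries was not settled. Deviations of same-numbered libraries correlated from −0.154 to 0.277, and in no class did all 4 pairs exceed 0.1. In endothelial, mural and dendritic cells 2 of 4 day 7 libraries were closest to their own number, and 0 of 4 in tenocyte-like cells. So few libraries cannot exclude pairing. The replicate block gave 1 mural gene (Hmox1) and 0 tenocyte-like genes (Ctgf, edgeR adjusted p = 0.0992). Low depth limits dendritic cells most.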
